A study of Rattus norvegicus with 12 samples.

Results

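The genes described here are 9 genes of brown and beige fat, the tissue that turns fuel into heat: Ucp1, Cidea, Dio2, Elovl3, Prdm16, Ppargc1a, Ppargc1b, Adrb3 and Zic1. They were taken by name from a table of reads counted per gene, in which rat Entrez identifiers were matched to symbols. Of the 9 genes, 8 had a row among the 16511 genes of the table, and Prdm16 was not analysed here. Of these 8, 3 (Ucp1, Cidea and Adrb3) passed the filter on low counts, as did 9382 of the 16511 genes. The labels describe whole glands and are followed here, whereas the methods of the study describe RNA from epithelium cut out by laser in high butterfat groups with and without bisphenol A. Which applies to these libraries was not settled, and adipocyte, muscle and lymphoid markers were read in them, as given below.

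The samples were 12 mammary glands of female Sprague-Dawley rats at PND21, each from another litter. Of these, 6 came from offspring of dams given a high fat butter diet (HFB) and 6 from offspring of dams given the control AIN diet (CTL). The diet was that of the mother during gestation, and the newborns of both groups were given AIN. The statements of when the exposure ended differ, and which gland of the animal was taken is not given in the sources used here. Libraries are named by diet and library number, 1 to 6 for HFB and 7 to 11 and 14 for CTL.

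Brown adipocytes carry uncoupling protein in the inner mitochondrial membrane, which lets protons return to the matrix without making ATP, so that respiration gives heat. Noradrenaline from sympathetic nerves drives the program through beta-adrenergic receptors and cAMP, local conversion of thyroid hormone strengthens it, and Prdm16 and the Pgc-1 coactivators organize its transcription. Beige adipocytes arise within white fat depots, such as the subcutaneous fat in which the rodent mammary gland lies, and acquire many of the same genes.

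Total counts per library lay between 2320267 and 2944680, with a median of 2660268 for HFB and 2537563.5 for CTL. Mean totals of the diets were within the spread of the libraries (exact permutation test, two-sided, p = 0.561). Levels are given as CPM, counts scaled by TMM to a common library size of 1e6. A level was called detectable above 3 counts, which stand for 0.949 to 1.30 CPM depending on the library. This limit covers counting error only. The 30 pairs of libraries of 1 diet were compared to see whether any held the same library more than once, and none of the 30 did, with a chi-square per degree of freedom of at least 6.69. Pairs across the diets were not compared.

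The tissue label was compared with marker genes. All 10 white adipocyte genes with a row were read in these glands, with Fabp4 at a mean of 19562 CPM, and 9 of 10 epithelial genes were read, with Krt8 at a mean of 113 CPM. The milk protein gene Csn2 had 0 reads and Wap a mean of 1.11 CPM. HFB 6 and CTL 14 had the lowest summed adipocyte levels (25312 and 18550 CPM) and the highest summed lymphoid levels (952 and 1045 CPM). HFB 5 had the highest summed adipocyte level (43959 CPM) and yet low levels of some genes that were also low in HFB 6 and CTL 14, as given below for Elovl5 and Lpl. The reason was not tested. The fold changes of Ucp1, Cidea and Adrb3 and the main correlations are given also without both libraries, and other values with all 12. In bulk tissue, fewer cells of a type and less RNA per cell cannot be told apart.

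Ucp1, the uncoupling protein itself (Entrez 24860), was read in all 12 libraries. Its level in HFB libraries had a lowest value of 5.03, a median of 6.03 and a highest value of 113 CPM. In CTL libraries the lowest value was 8.80, the median 11.5 and the highest 171 CPM. A single gland of each diet, HFB 3 and CTL 9, carried the high values, and the diet groups overlapped. HFB 3 had 291 and CTL 9 had 393 of the 956 reads counted on Ucp1, together 71.5%. Against the median of the other 5 libraries of its diet, HFB 3 was 20.2-fold and CTL 9 18.4-fold higher. The next highest gland was HFB 1, at 25.1 CPM, and the remaining 9 lay between 5.03 and 16.6 CPM. Among these, 4 of the 6 HFB libraries (HFB 2, 4, 5 and 6) were below the lowest CTL value.

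The range of Ucp1 over the glands, 4.89 on the log2 scale, was the 110th widest of the 9382 genes tested, for which the median range was 1.34. Its biological coefficient of variation, the spread between glands of a diet beyond counting error, was 1.10, the 31st highest.

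The difference between the diets in Ucp1 was smaller than its error. The mean was 26.8 ± 43.2 CPM (SD, n = 6) with HFB and 38.0 ± 65.2 CPM (SD, n = 6) with CTL. The log2 fold change of HFB over CTL was -0.49 (SE 1.00), with a 95% interval from -2.65 to 1.66. The edgeR quasi-likelihood test gave an unadjusted p of 0.629 and a Benjamini-Hochberg adjusted p of 0.999. The direction depended on 1 library: the log2 fold change turned to 1.23 without CTL 9. Without HFB 3 it stayed negative, at -1.997. With both left out, a choice made after seeing the data, it was -0.27 (SE 0.48). Without HFB 6 and CTL 14, also chosen after seeing the data, it was -0.48 (SE 0.99).

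**Figure D1:**
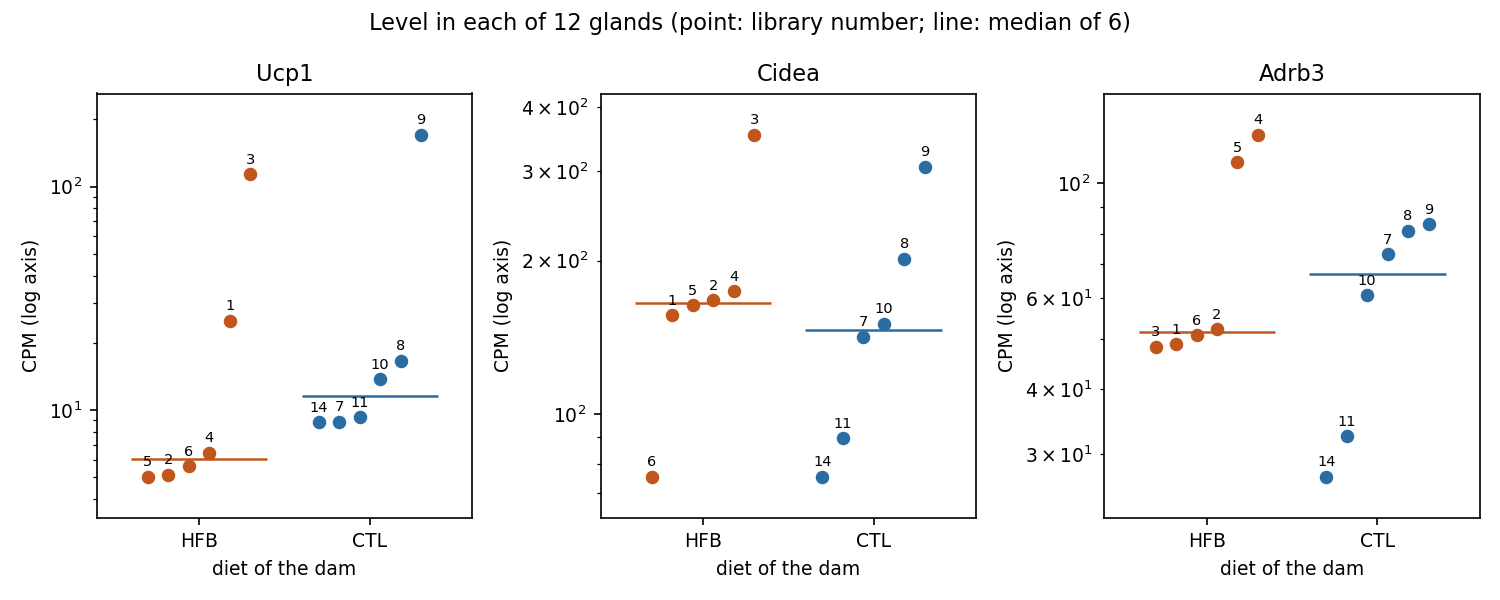
CPM of Ucp1, Cidea and Adrb3 (vertical log axes) in each of 12 glands, by diet of the dam; each point is a library with its number, and lines are medians of 6. HFB 3 (113 CPM) and CTL 9 (171 CPM) stand above the other glands for Ucp1 and are the highest for Cidea, while HFB 4 and HFB 5 are the highest for Adrb3.

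The start of Ucp1 is shown because the results turn on this gene. In the RefSeq GRCr8 rat assembly, which is not the build named for the counts, the window on the minus strand is chr19:41721372-41721671, from 250 bases before the annotated start of the gene to 50 after it. Capitals mark the letters of the shorter cAMP response element (TGACG) and of the TATA box (TATAAA).
Ucp1: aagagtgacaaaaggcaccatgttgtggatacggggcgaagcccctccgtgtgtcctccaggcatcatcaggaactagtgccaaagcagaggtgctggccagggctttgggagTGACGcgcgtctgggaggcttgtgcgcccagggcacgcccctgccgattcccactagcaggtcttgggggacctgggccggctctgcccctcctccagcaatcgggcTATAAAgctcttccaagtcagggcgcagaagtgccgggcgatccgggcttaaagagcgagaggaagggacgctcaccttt
The window held 1 match to TGACG and 1 to TATAAA, whose first base lay 30 bases before the start. Both strands were searched for these 2 motifs and for 4 more. The full cAMP response element was TGACGTCA, which contains the shorter one on each strand. The core of nuclear receptor sites was AGGTCA, the CCAAT box was CCAAT and the GC box was GGGCGG. Of 33469 rat promoter windows of the same length, 21.2% held TGACG and 14.2% held TATAAA. Windows of 7 of the 9 genes were found. Ppargc1a was the only one of the 7 with TGACGTCA, which 1.83% of all windows held, and AGGTCA was in 0 of the 7, against 16.2% of all windows. CCAAT was in 5 of the 7 and in 37.5% of all windows, and GGGCGG was in 3 of the 7 and in 33.1%. These matches describe letters in the windows and do not show binding.

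Ucp2, an uncoupling protein found in many tissues and in immune cells, lay between 107 and 265 CPM and was highest in CTL 14. Ucp3, known from skeletal muscle and brown fat, lay between 6.82 and 36.1 CPM, with its highest value in CTL 9, where Ucp1 was highest too, and its lowest in HFB 6 and CTL 14. The log2 fold change of HFB over CTL was 0.16 (SE 0.23) for Ucp2 and -0.44 (SE 0.36) for Ucp3, with adjusted p = 0.999 for both (edgeR).

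Cidea, a lipid droplet protein that is abundant in brown and beige adipocytes (Entrez 291541), was read in all 12 glands. In HFB libraries its level had a lowest value of 75.4, a median of 166 and a highest value of 354 CPM. In CTL libraries the lowest value was 75.4, the median 146 and the highest 306 CPM. The highest glands were again HFB 3 and CTL 9, but the gap was smaller than for Ucp1, 2.16-fold and 2.15-fold over the median of the other 5 libraries of the diet. The lowest were HFB 6 and CTL 14, the 2 glands with low adipocyte markers, and the diet groups overlapped.

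Mean Cidea was 182 ± 91.8 CPM (SD, n = 6) with HFB and 161 ± 84.4 CPM (SD, n = 6) with CTL. The log2 fold change was 0.18 (SE 0.37), with a 95% interval from -0.63 to 0.98 and an adjusted p of 0.999 (edgeR). It turned to -0.13 without HFB 3 and was 0.46 without CTL 9. Without HFB 6 and CTL 14, left out together after seeing the data, it was 0.19 (SE 0.31).

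Of the related genes, Cidec, which fuses lipid droplets in white adipocytes, lay between 364 and 1788 CPM and was lowest in CTL 14 and HFB 6. Its level in HFB 3 (1369 CPM) and CTL 9 (1331 CPM) was within the range of the other glands. Cideb, a gene of the liver and gut, had 19 reads in all. The log2 fold change of Cidec was 0.07 (SE 0.34).

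Adrb3, the beta-adrenergic receptor of adipocytes through which noradrenaline starts lipolysis and heat production (Entrez 25645), had a different order of glands. In HFB libraries it had a lowest value of 48.4, a median of 51.6 and a highest value of 124 CPM. In CTL libraries the lowest value was 27.1, the median 67.0 and the highest 83.5 CPM. The highest glands were HFB 4 and HFB 5, the only 2 above every CTL gland, and the other 4 HFB libraries lay inside the CTL range. HFB 3, the HFB gland with the most Ucp1, had the lowest Adrb3 level of its diet, 48.4 CPM, close to HFB 1 at 48.9 CPM. CTL 9, the CTL gland with the most Ucp1, had the highest Adrb3 level of its diet, 83.5 CPM, close to CTL 8 at 81.0 CPM.

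Mean Adrb3 was 72.4 ± 34.9 CPM (SD, n = 6) with HFB and 59.7 ± 24.5 CPM (SD, n = 6) with CTL. The log2 fold change was 0.28 (SE 0.34), with a 95% interval from -0.46 to 1.02 and an adjusted p of 0.999 (edgeR). It was 0.056 without HFB 4, 0.22 (SE 0.31) without HFB 6 and CTL 14, and 0.0028 by limma-voom with sample quality weights. It was 0.40 without CTL 9 and 0.49 (SE 0.38) without HFB 3 and CTL 9. Both pairs were chosen after seeing the data. Adrb1, the receptor of the heart that brown preadipocytes also carry, had 49 reads in all.

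Of the 3 members tested, 0 passed an adjusted p of 0.05, and across all 9382 genes 0 passed (0%), by edgeR and by limma. DESeq2 gave no p for Ucp1, and 0 of the genes to which it gave one passed. At an unadjusted p under 0.05 edgeR gave 220 genes (2.34%), 122 higher with HFB (1.30%) and 98 lower (1.04%), DESeq2 271 and limma 613, with 0 members among the 220. With total counts in place of TMM factors the split of 223 genes was 25 higher and 198 lower. Diet groups without overlap were seen for 0 of the 3 members and for 10 of the 9382 genes (0.107%). Without HFB 5 the log2 fold changes were -0.28 for Ucp1, 0.21 for Cidea and 0.12 for Adrb3. The intervals given above show how wide a difference these 6 glands against 6 leave for each gene.

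**Figure D2:**
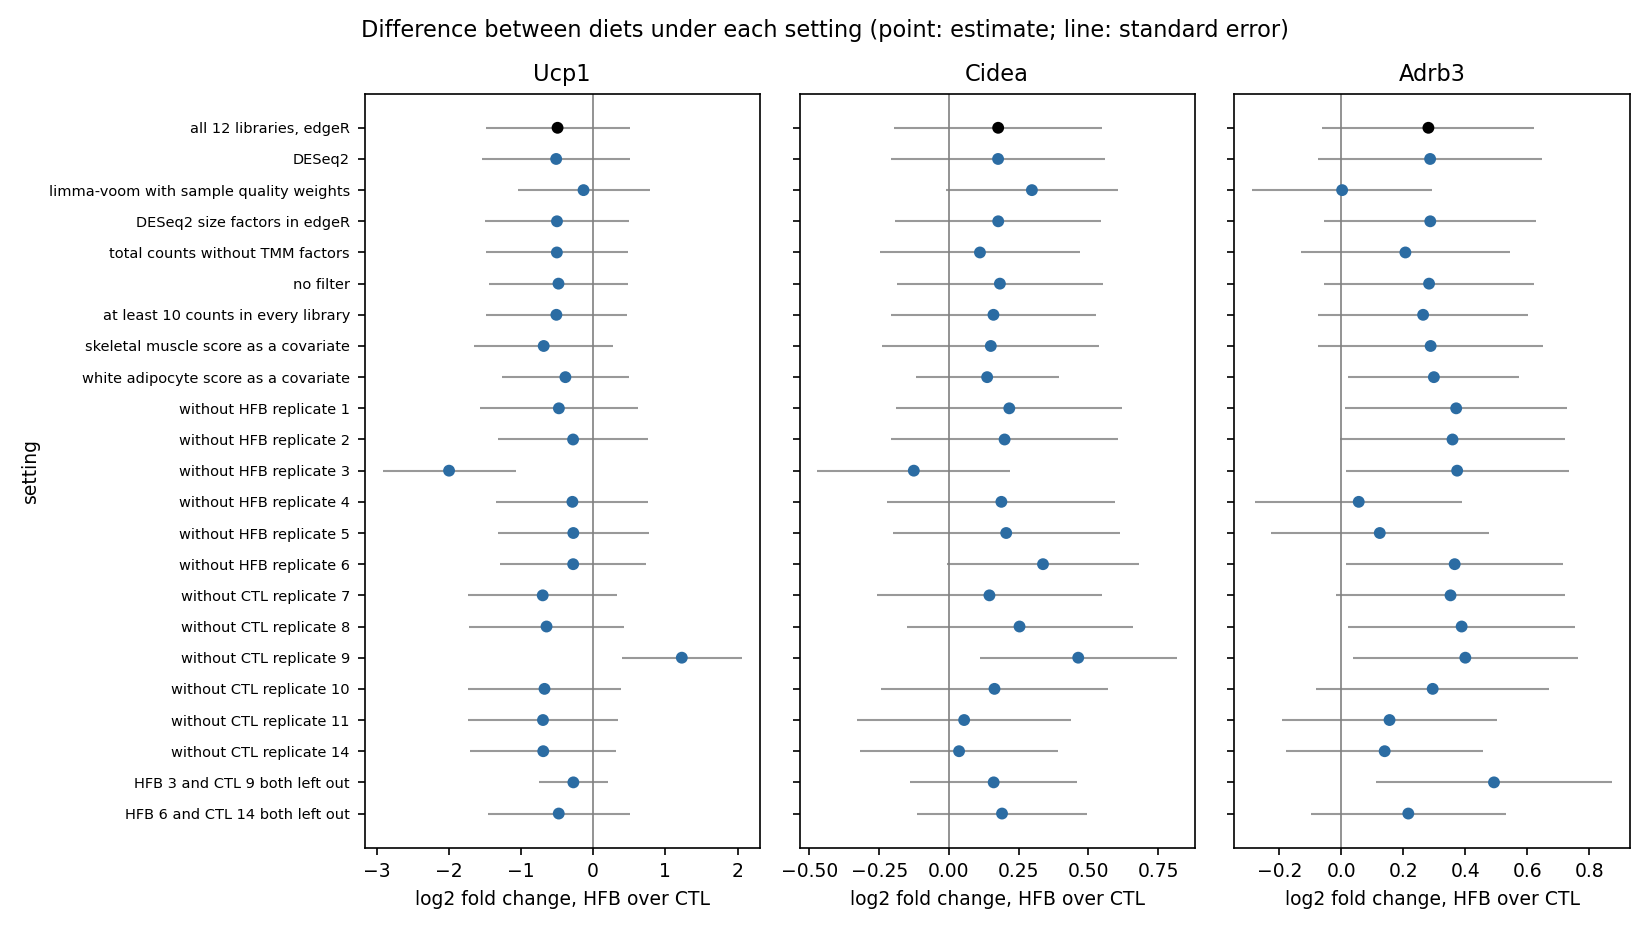
Log2 fold change of HFB over CTL (horizontal axis) for Ucp1, Cidea and Adrb3 under each setting; points are estimates and lines their standard errors, with all 12 libraries by edgeR in black. Ucp1 moves from -1.997 without HFB 3 to 1.23 without CTL 9, and the other settings lie between.

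The remaining 5 members with a row were near or under the detectable level. Dio2, the deiodinase that makes active thyroid hormone inside brown adipocytes, had 11 reads in all, never more than 3 in a gland, and 6 glands at 0. Elovl3, a fatty acid elongase induced by cold in brown fat, had 12 reads, 5 of them in CTL 8 and 7 glands at 0. Ppargc1a, the coactivator of mitochondrial biogenesis that cold induces, had 32 reads, with 6 each in CTL 9 and CTL 10. Ppargc1b, its relative with a role in basal mitochondrial content, had 46 reads, between 0 and 7 in a library. Zic1, a transcription factor that marks classical brown fat rather than beige cells, had 1 read, in HFB 4.

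The diets could not be separated at these depths. Reads summed over the 6 libraries of each diet were 4 with HFB and 7 with CTL for Dio2, 5 and 7 for Elovl3, 14 and 18 for Ppargc1a, and 18 and 28 for Ppargc1b. In the fit without a filter the log2 fold changes were -0.67 (SE 1.01), -0.40 (SE 1.11), -0.31 (SE 0.74) and -0.56 (SE 0.57), in the same order. The adjusted p was 0.998 for each of these genes (edgeR). Elovl3 turned to 0.93 without CTL 8 and to 0.10 with limma, and Ppargc1a turned to 0.053 without CTL 9. When 1 library was left out, Dio2 ran from -1.29 to -0.14 and Ppargc1b from -0.775 to -0.30. For Zic1 both diets were under 3 counts, and no fold is given. The 1 read of HFB allows up to 0.367 CPM and the 0 reads of CTL up to 0.232 CPM over the libraries of a diet (exact 95% Poisson intervals, counting error only).

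**Figure D3:**
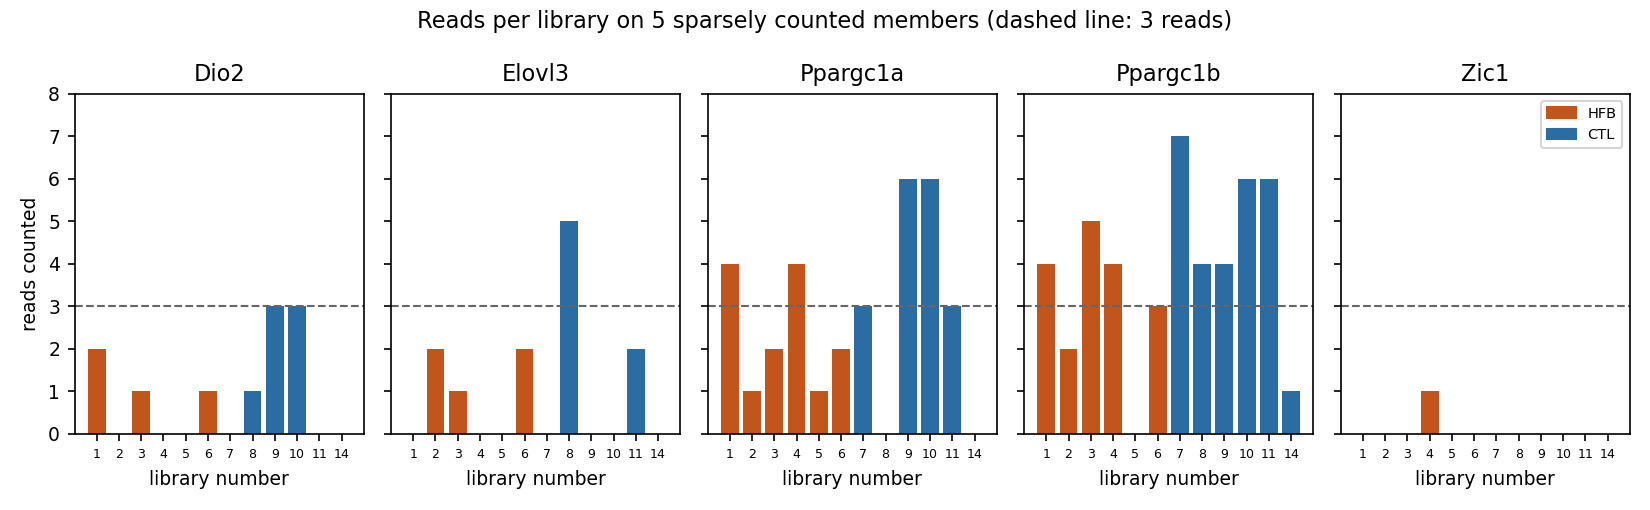
Reads counted in each library (vertical axis) on Dio2, Elovl3, Ppargc1a, Ppargc1b and Zic1, with bars in orange for HFB and blue for CTL by library number and a dashed line at 3 reads. The highest bar is 7 reads, for Ppargc1b in CTL 7.

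In the same families, Dio1 had 4 reads, all in CTL libraries with at most 1 in each, and Dio3 had 0. In the fit without a filter Dio1 had an unadjusted p of 0.027 and an adjusted p of 0.998 (edgeR), and no fold is given for so few reads. Zic2 had 9 reads, and Zic4 and Zic5 had 0. Among the elongases, Elovl1 (saturated and monounsaturated long chains) lay between 37.7 and 101 CPM, with a log2 fold change of -0.13 (SE 0.21). Elovl6 (lipogenesis) lay between 6.58 and 69.9 CPM, with a log2 fold change of 0.64 (SE 0.55). Elovl5 (polyunsaturated chains) fell into high and low glands within both diets. It was read at 0 in HFB 6, 4.93 CPM in CTL 14 and 8.12 CPM in HFB 5, and at 71.5 CPM or more in the other 9. Elovl2, Elovl4 and Elovl7 had 32, 11 and 22 reads in all.

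How the members varied together was examined over the 12 glands for the 4 with at least 36 reads in all, Ucp1, Cidea, Adrb3 and Ppargc1b, which gives 6 pairs. With 32 relations between these members and 8 marker scores, 38 relations were computed and adjusted together. Of the 6 pairs, 0 had an adjusted p under 0.05. Ucp1 and Cidea had the highest Pearson r of the pairs, r = 0.73 (permutation p = 0.0083, adjusted p = 0.158) and Spearman rho = 0.43 (permutation p = 0.161, adjusted p = 0.570). Without HFB 3 and CTL 9, the glands farthest from the median of Ucp1, r was 0.24 (permutation p = 0.512), so that the relation rests on those glands. Within the diets r was 0.72 over the 6 HFB glands (exact p = 0.219) and 0.82 over the 6 CTL glands (exact p = 0.0042), each with 1 of these glands. Without HFB 6 and CTL 14, a choice made after seeing the data, r was 0.77 and rho 0.42.

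Over all 12 glands Adrb3 and Ucp1 had r = -0.0054 (permutation p = 0.986, adjusted p = 0.986) and rho = -0.17 (permutation p = 0.604, adjusted p = 0.905). Within the diets r was -0.49 over the 6 HFB glands (exact p = 0.306) and 0.54 over the 6 CTL glands (exact p = 0.263), and the difference was not tested. The r over the 10 glands other than HFB 3 and CTL 9 was -0.19. For Cidea and Adrb3, r was 0.51 (permutation p = 0.090, adjusted p = 0.380) and rho 0.49 (permutation p = 0.109, adjusted p = 0.570), and r was 0.60 without HFB 3 and CTL 14. Within the diets r was 0.0085 over the 6 HFB glands (exact p = 0.951) and 0.92 over the 6 CTL glands (exact p = 0.0069), and the difference was not tested. Without HFB 6 and CTL 14 r was 0.29, and without HFB 3 and CTL 9 it was 0.74.

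Ppargc1b, which rests on 46 reads, had the highest rho of the pairs, 0.65 with Ucp1 (permutation p = 0.026, adjusted p = 0.243). The Pearson r of this pair was 0.41 (permutation p = 0.167, adjusted p = 0.567). Within the diets r was 0.61 for HFB (exact p = 0.168) and 0.095 for CTL (exact p = 0.8), and the difference was not tested. Without HFB 3 and CTL 9 r was 0.50 and rho 0.73 (permutation p = 0.140 and 0.020), and without HFB 6 and CTL 14 they were 0.39 and 0.47. With Cidea Ppargc1b had r = 0.22 and rho = 0.056 (permutation p = 0.497 and 0.870, adjusted p = 0.890 and 0.905), and -0.052 and -0.43 without HFB 6 and CTL 14. With Adrb3 it had r = -0.11 and rho = -0.18 (permutation p = 0.747 and 0.573, adjusted p = 0.944 and 0.905), and -0.51 and -0.58 without HFB 6 and CTL 14 (permutation p = 0.136 and 0.0887, not adjusted). Within the diets r of Ppargc1b with Adrb3 was -0.52 over the 6 HFB glands (exact p = 0.293) and 0.48 over the 6 CTL glands (exact p = 0.351), and the difference was not tested.

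**Figure D4:**
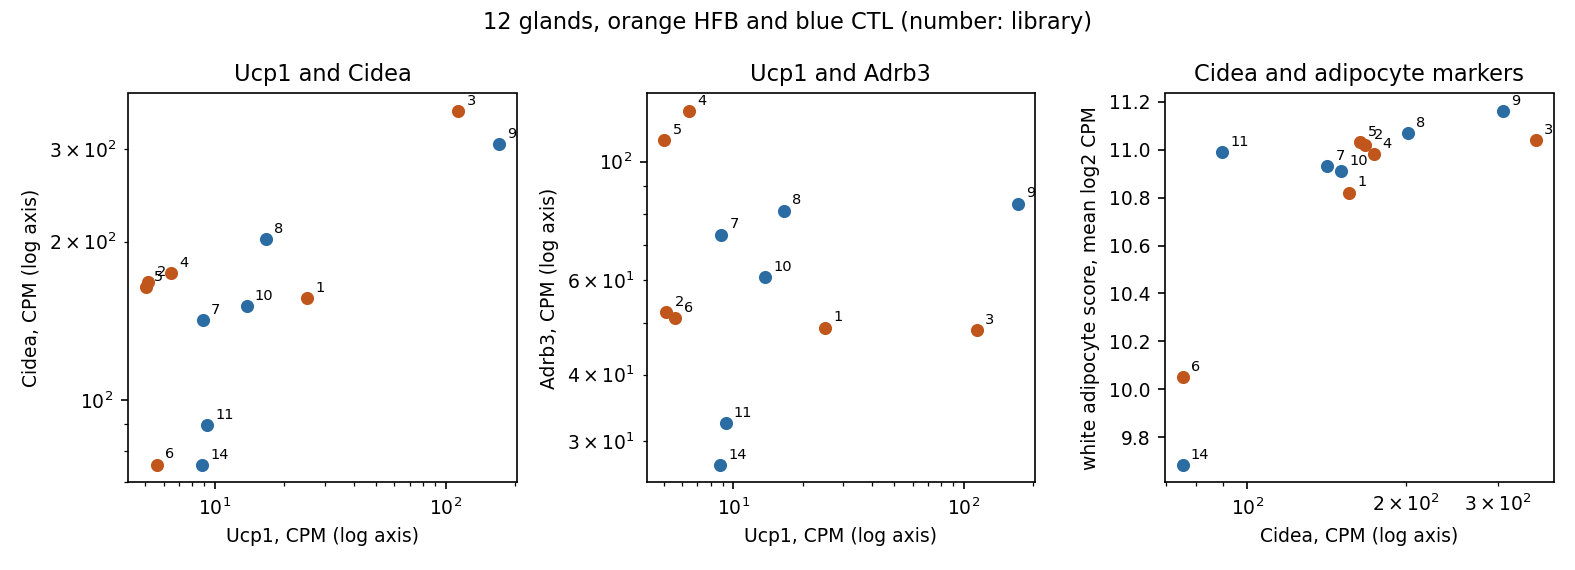
Ucp1 against Cidea and against Adrb3 (CPM, log axes), and Cidea against the white adipocyte score (mean log2 CPM), in 12 glands with HFB in orange and CTL in blue and library numbers beside the points. HFB 3 and CTL 9 lie far to the right for Ucp1, and HFB 6 and CTL 14 lie lowest on the adipocyte score.

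Of the 32 relations with marker scores, 0 had an adjusted p under 0.05 by Pearson r and 1 by Spearman rho. That 1 was Cidea with white adipocyte markers (r = 0.74, permutation p = 0.0047, adjusted p = 0.158, and rho = 0.84, permutation p = 0.0013, adjusted p = 0.048). HFB 6 and CTL 14 had the lowest adipocyte scores, 10.05 and 9.69, and without both r was 0.54 (permutation p = 0.104) and rho 0.72 (permutation p = 0.023), so that the Pearson relation rests in part on these glands. Without HFB 3 and CTL 14 r was 0.73, and within the diets it was 0.82 for HFB (exact p = 0.013) and 0.70 for CTL (exact p = 0.104). Ucp1 had r = 0.33 with the same score (permutation p = 0.288, adjusted p = 0.643) and rho = 0.33 (permutation p = 0.297, adjusted p = 0.654). For Adrb3, r with this score was 0.57 (permutation p = 0.0461, adjusted p = 0.350) and rho 0.46 (permutation p = 0.13, adjusted p = 0.570). Without HFB 6 and CTL 14 the values for Adrb3 were 0.28 and 0.24.

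The score of mammary epithelial markers had r = -0.63 with Ucp1 (permutation p = 0.030, adjusted p = 0.282, and rho = -0.69, permutation p = 0.014, adjusted p = 0.224), and r was -0.57 without HFB 3 and CTL 9 and -0.60 without HFB 6 and CTL 14. With Cidea, r was -0.69 (permutation p = 0.014, adjusted p = 0.174) and rho -0.69 (permutation p = 0.018, adjusted p = 0.224), and r was -0.58 without HFB 3 and CTL 14 and -0.48 without HFB 6 and CTL 14. With Adrb3, r was -0.093 and rho -0.056 (permutation p = 0.776 and 0.869, adjusted p = 0.944 and 0.905), and r was 0.31 without HFB 6 and CTL 14. Over the 6 HFB glands this r was 0.46 (exact p = 0.313) and over the 6 CTL glands -0.73 (exact p = 0.0875). For Ucp1 the values within the diets were -0.60 with HFB (exact p = 0.201) and -0.90 with CTL (exact p = 0.0069). For Cidea they were -0.55 with HFB (exact p = 0.251) and -0.92 with CTL (exact p = 0.0125). These exact p values were not adjusted. With Ppargc1b, r was -0.34 and rho -0.37 (permutation p = 0.276 and 0.237, adjusted p = 0.643 and 0.6001). The summed level of the 10 epithelial genes with a row was 174 CPM in HFB 3 and 194 CPM in CTL 9, against 120 and 195 CPM in HFB 1 and HFB 2 and 363 CPM or more in the other 8 glands. HFB 2 had an epithelial level close to that of CTL 9 and only 5.14 CPM of Ucp1. The part of epithelial content in the Ucp1 and Cidea levels was not tested.

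Skeletal muscle, which can lie next to the gland, was read to very different degrees. The summed level of the 11 muscle genes with a row, of which Acta1 had the most reads, was highest in HFB 6 (8449 CPM), CTL 11 (6752 CPM) and HFB 3 (6177 CPM), and was 2903 CPM in CTL 9. HFB 6 and CTL 11 had Ucp1 at only 5.61 and 9.27 CPM. The r of Ucp1 with the muscle score was 0.14 (permutation p = 0.678, adjusted p = 0.920, and rho = -0.098, permutation p = 0.766, adjusted p = 0.905), and it was -0.49 without HFB 3 and CTL 9. The 6 slow muscle genes, led by Myl2, summed to 304 CPM in HFB 3, 285 CPM in HFB 6, 188 CPM in CTL 11 and 118 CPM in CTL 9.

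Nerve markers bear on the same program, since noradrenaline reaches fat from sympathetic fibres. Th and Dbh, enzymes of noradrenaline synthesis, had means of 0.0334 and 0.0621 CPM, that is 1 and 2 reads in all. The 8 genes of the list were led by S100b, which adipocytes also express, and summed to between 852 CPM in HFB 6 and 2711 CPM in CTL 8, with 1827 CPM in HFB 3 and 2170 CPM in CTL 9. The r of Ucp1 with the nerve score was -0.19 over 12 glands and -0.77 over the 10 without HFB 3 and CTL 9 (permutation p = 0.599 and 0.010, adjusted p = 0.920 for the 12), and rho was -0.42 and -0.60 (permutation p = 0.176 and 0.074). This score gives the 8 genes equal weight, Th and Dbh included, and whether it follows nerve supply was not tested. Sox10 was highest in CTL 14 and HFB 6 (33.8 and 30.1 CPM), where summed epithelial levels were highest too (740 and 750 CPM). Npy was highest in HFB 2, at 53.1 CPM. Red blood cell genes, led by Hbb, summed to 40697 CPM in CTL 9 and 22528 CPM in HFB 3, and were highest in HFB 2 at 65195 CPM. Ucp1 had r = 0.16 and rho = -0.17 with their score over 12 glands (permutation p = 0.623 and 0.588, adjusted p = 0.920 and 0.905). Within the diets r was -0.30 for HFB (exact p = 0.503) and 0.89 for CTL (exact p = 0.126), and the difference was not tested. Without HFB 3 and CTL 9 r was -0.71 and rho -0.81 (permutation p = 0.017 and 0.0073, not adjusted). Endothelial genes, led by Pecam1, summed to 201 CPM in HFB 3 and 270 CPM in CTL 9 and were highest in CTL 14 at 519 CPM. In HFB 6, where they summed to 483 CPM, Pecam1 was at 256 CPM and Tie1 at 115 CPM, while Cdh5 was at its lowest of the 12 glands, 2.81 CPM, and Tek at 46.1 CPM was within the range of the others.

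None of the 8 summed marker levels differed between the diets beyond the spread between glands (two-sided exact permutation tests, adjusted over 9 tests with the total counts). The smallest p was 0.268, for red blood cell genes, at 26435 ± 19891 CPM (SD, n = 6) with HFB and 14498 ± 12921 CPM (SD, n = 6) with CTL, and the adjusted exact p was at least 0.845. White adipocyte genes summed to 36551 ± 6552 CPM (SD, n = 6) and 35196 ± 8678 CPM (SD, n = 6), in the same order of diets. With total counts in place of TMM factors, added after seeing the data, this difference turned from 1356 to -585.1 CPM. Epithelial genes summed to 385 ± 266 CPM (SD, n = 6) and 458 ± 185 CPM (SD, n = 6). Muscle genes summed to 3475 ± 3214 CPM (SD, n = 6) and 2332 ± 2343 CPM (SD, n = 6), and lymphoid genes, led by Lck, to 240 ± 366 CPM (SD, n = 6) and 195 ± 417 CPM (SD, n = 6).

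The genes whose levels followed each member most closely over the 12 glands were taken from all 9382 genes tested, as a description with no test. For Ucp1 they were Prkag2 (r = 0.83), a regulatory subunit of the energy sensor AMPK, Rnf146 (r = 0.79), a ubiquitin ligase, and Cpt1b (r = 0.75), which brings fatty acids into mitochondria of muscle and brown fat. Cidea was the 7th nearest gene to Ucp1. Without HFB 3 and CTL 9 these r values were 0.11, 0.23 and 0.50, so that the likeness lay largely in those 2 glands. Cpt1b was read at 56.9 CPM in HFB 3 and 47.8 CPM in CTL 9, against 24.7 to 42.7 CPM in the other 10.

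The nearest genes of Cidea were Slc25a20 (r = 0.92), the carnitine carrier of the inner mitochondrial membrane, Ndufaf5 (r = 0.91), an assembly factor of respiratory complex I, and Slc36a2 (r = 0.88), an amino acid transporter used as a surface marker of brown and beige adipocytes. Without HFB 3 and CTL 9 the values were 0.93, 0.93 and 0.87, and without HFB 6 and CTL 14 they were 0.94, 0.82 and 0.76. Slc36a2 was highest in HFB 3 (185 CPM), CTL 8 (176 CPM) and CTL 9 (152 CPM), and lowest in CTL 14 (40.5 CPM) and HFB 6 (43.3 CPM). For Adrb3 the nearest genes were Twist1 (r = 0.91), a transcription factor that restrains the brown fat program in adipocytes, Map1lc3b (r = 0.90), of autophagosomes, and Mxra8 (r = 0.89), a matrix-associated membrane protein, and r was 0.90, 0.85 and 0.86 without HFB 6 and CTL 14.

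The wider program was followed in 7 lists with 122 genes, of which 111 had a row and 87 were tested. At an unadjusted p under 0.05, 1 of the 87 was called (1.15%, against 2.34% of all genes), and 0 passed the adjusted threshold. The genes were spread to both sides, 41 higher and 46 lower with HFB, with a median log2 fold change of -0.0023 against 0.00018 over all genes. The 2 genes with the most reads and the gene with the smallest p are named for each list, and read numbers also depend on transcript length.

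Uncoupling and mitochondrial thermogenesis had 15 of 17 genes tested, 7 higher and 8 lower, with a median of -0.00082. Ckb, the creatine kinase of a futile creatine cycle in thermogenic fat, had a mean of 249 ± 72.6 CPM (SD, n = 6) with HFB and 195 ± 29.5 CPM (SD, n = 6) with CTL. Its log2 fold change was 0.35 (SE 0.19, unadjusted p = 0.081), the smallest p of the list. Atp2a2, the calcium pump of another heat-producing cycle, had a log2 fold change of -0.18 (SE 0.17).

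Brown and beige identity had 11 of 21 genes tested, 7 higher and 4 lower, with a median of 0.06. Besides Cidea, Slc36a2 had a log2 fold change of -0.10 (SE 0.37) and Eva1b of 0.42 (SE 0.33, unadjusted p = 0.221). Further genes of the list are named after their values were seen. Some were sparse, with 36 reads in all for Lhx8, 82 for Tbx1, 49 for Tmem26, 73 for Otop1 and 126 for Tnfrsf9, of which 53 lay in HFB 6 and 35 in CTL 14. Others were read in every gland, with 2136 reads for Cited1, 1520 for P2rx5, 526 for Hoxc9, 494 for Epsti1 and 421 for Hoxc8. Of the Epsti1 reads, 181 lay in CTL 14. Cited1 was highest in HFB 6, HFB 5 and CTL 14 (166, 138 and 134 CPM), where the epithelial gene Krt8 was highest too (222, 201 and 192 CPM). It was lowest in HFB 3 (16.8 CPM), and in CTL 9 it was the lowest of the CTL glands (24.4 CPM). The reason was not tested. Acot11 and Hoxa9 were not analysed here.

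Transcriptional control had 19 of 26 genes tested, 9 higher and 10 lower, with a median of -0.11. Pparg, the master regulator of adipocytes, lay between 71.8 CPM in HFB 6 and 488 CPM in CTL 9, with a log2 fold change of -0.11 (SE 0.38). Ctbp1, a corepressor that Prdm16 recruits, had 0.11 (SE 0.12). Cebpb, a partner of Prdm16, had the only unadjusted p under 0.05 among the 87 list genes that passed the filter, at 120 ± 43.8 CPM (SD, n = 6) with HFB and 81.9 ± 21.8 CPM (SD, n = 6) with CTL. Its log2 fold change was 0.55 (SE 0.24), with an unadjusted p of 0.042 and an adjusted p of 0.999 (edgeR). Rxra, Nfia and Med1, named after their values were seen, were lowest in HFB 5, HFB 6 and CTL 14. In that order Rxra was at 5.4, 2.0 and 3.5 CPM, and at 12.4 CPM or more in the other 9. Nfia was at 3.1, 2.4 and 3.5 CPM, against 15.4 CPM or more. Med1 was at 2.3, 2.8 and 2.1 CPM, against 10.1 CPM or more. Tle3 went the other way, highest in HFB 6 and CTL 14 (122.7 and 113.8 CPM). Foxc2 was not analysed here.

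Beta-adrenergic and cAMP signalling had 15 of 20 genes tested, 5 higher and 10 lower, with a median of -0.05. Prkar2b, a regulatory subunit of protein kinase A, had a log2 fold change of -0.04 (SE 0.36) and ran from 230 CPM in CTL 14 to 1068 CPM. Gnai2, an inhibitory G protein subunit, had -0.05 (SE 0.12), and Adcy6, an adenylyl cyclase, had -0.32 (SE 0.19, unadjusted p = 0.113). Gnas, the stimulatory G protein subunit, had only 78 reads. Its locus carries overlapping transcripts and the counting rules are not given in the sources used here, so its level is uncertain. Adra2a was not analysed here.

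The thyroid hormone axis had 4 of 9 genes tested, 3 higher and 1 lower, with a median of 0.18. Thra, a thyroid hormone receptor, had a log2 fold change of 0.10 (SE 0.18), Ncoa1, a coactivator, -0.13 (SE 0.15), and Slc16a10, a thyroid hormone transporter, 0.42 (SE 0.27, unadjusted p = 0.141). Ncor1 was not analysed here.

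Secreted thermogenic signals and their receptors had 11 of 17 genes tested, 5 higher and 6 lower, with a median of -0.02. Vegfa, the angiogenic factor, had a log2 fold change of -0.27 (SE 0.20, unadjusted p = 0.186), and Fgfr1, a receptor of Fgf21, had -0.37 (SE 0.44). Fgf21 itself had 39 reads and Il6 had 2. Klb, Bmp8b and Fndc5 were not analysed here.

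Lipolysis, which feeds thermogenesis, had 12 of 12 genes tested, 5 higher and 7 lower, with a median of -0.03. Lpl, which frees fatty acids from lipoproteins, ran from 298 to 6088 CPM with a log2 fold change of -0.18 (SE 0.60). It was at 298 CPM in HFB 6, 620 CPM in CTL 14 and 1352 CPM in HFB 5, and at 3508 CPM or more in the other 9. Mgll and Abhd5, lipolysis genes named after their values were seen, were likewise lowest in these 3 glands, at 34.0 and 12.8 CPM in HFB 5 and at 156.5 and 40.3 CPM or more in the other 9. Genes outside this list, such as Elovl5, Rxra, Nfia and Med1, were lowest there too, as given above. Pnpla2, the first lipase of stored fat, had 0.04 (SE 0.28), and Angptl4, which inhibits Lpl, had 0.61 (SE 0.47, unadjusted p = 0.216). Angptl4 was split within HFB, at 75.7 CPM or less in HFB 1, 2 and 3 and at 325 CPM or more in HFB 4, 5 and 6. Elovl6 was split between the same glands in the other direction, and the reason was not tested.

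**Figure D5:**
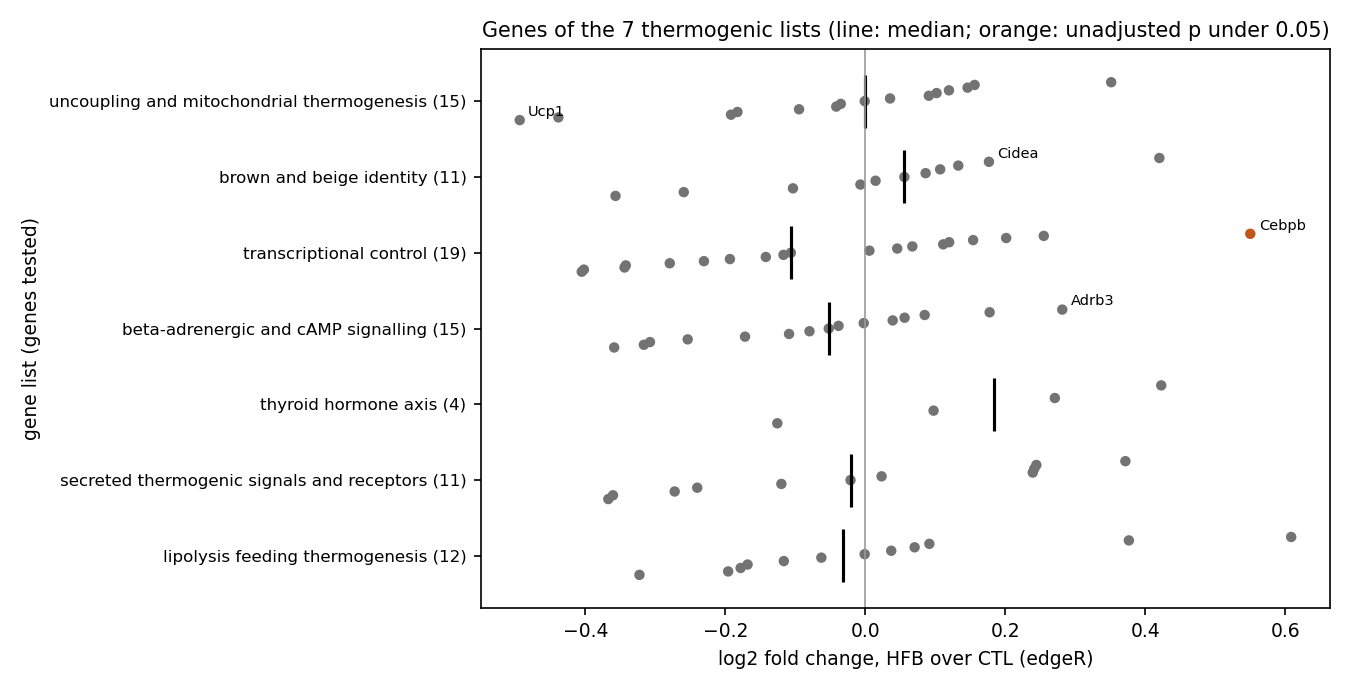
Log2 fold change of HFB over CTL for the tested genes of 7 thermogenic lists; each point is a gene, the vertical line is the median of the list, and orange marks an unadjusted p under 0.05. Cebpb (0.55) is the only orange gene, and the list medians lie between -0.11 and 0.18.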

How the data were processed

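The authors deposited raw counts of reads per Entrez gene, 1 column for each of 12 libraries, without normalization. The submitters' processing notes name bcl2fastq, CASAVA 1.8, TopHat, DESeq and the rn4 build, with no role or order. The counting program, annotation and use of strand are not given in the sources used here. Symbols came from the RefSeq table of the GRCr8 rat assembly. Genes were filtered with filterByExpr, scaled by TMM and tested in edgeR 4.0.16 (R 4.3.3) by the quasi-likelihood test with Benjamini-Hochberg adjustment over 9382 genes and a threshold of 0.05. The test was tried on simulated counts. Standard errors are the fold change over the square root of F. DESeq2 1.42.0 and limma 3.58.1 were alternatives, with other scalings, filters, covariates and each library left out in turn. Log2 CPM used a prior count of 2. Marker scores are means of log2 CPM. Correlations had 100000 resamples in Python 3.11.15 (scipy 1.17.1), and single values an exact permutation test over 924 assignments, with a smallest possible p of 0.0022. Named genes were the 9 members, their families, the 3 nearest genes of each tested member and, in each list, the 2 genes with the highest mean CPM and that with the smallest p. A few genes that this rule names are not reported here. Members and lists were chosen with earlier results of these data known. Plin4, Mylpf, Atp2a1, Cd79a, Krt5, Kdr and Cox7a1 were not analysed here.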

Additional observations from a re-analysis of the deposited data

Results flagged for a closer look

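Within each diet, the gap between the most extreme gland and its neighbour was compared with the range of the 6 glands for 38 named genes, the total counts and 8 summed marker levels. Of 94 groups, 21 had a gap larger than usual for 6 samples. Chance gives about 1 in 20 groups where values are normally distributed. The gaps were taken on values without logs, for which this share was not tested. The groups are not independent, since the same glands recur.

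Ucp1 stood far above the other glands in HFB 3 (113.5 CPM, next HFB 1 with 25.1 CPM) and in CTL 9 (170.9 CPM, next CTL 8 with 16.6 CPM). In HFB 3, Cidea (353.7 CPM, next HFB 4 with 174 CPM) was also far above the rest. Prkag2 was flagged in HFB 3 as well (39.39 CPM, next HFB 6 with 31.3 CPM), but it had been named for its correlation with Ucp1, so this value is not independent of that choice.

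CTL 14 was far from the other CTL glands in several measures. It was high for Ucp2 (264.5 CPM), Gnai2 (662.4 CPM), summed lymphoid markers (1045 CPM) and summed endothelial markers (519.1 CPM). It was low for Cidec (363.8 CPM), Atp2a2 (137.3 CPM), Prkar2b (230.3 CPM), Fgfr1 (34.86 CPM) and summed white adipocyte markers (18550 CPM). HFB 6 was likewise far from its group for Pparg (71.76 CPM, the lowest), summed lymphoid markers (952.1 CPM) and summed endothelial markers (483.1 CPM, from Pecam1 and Tie1 more than from Cdh5).

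Other distant values were Angptl4 in CTL 10 (220.4 CPM), red blood cell markers in HFB 2 (65190 CPM) and CTL 9 (40700 CPM), and total counts in HFB 1 (2320267, the lowest) and CTL 7 (2944680, the highest). No cause was tested for any of these values.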

How the results depend on the processing

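By edgeR, DESeq2, limma and every other setting tried for the fold changes, 0 genes and 0 members passed the adjusted threshold. The member pairs had their own 17 alternatives, without DESeq2, limma, the filters or the covariates. In each of these 17, which included Spearman rho, 0 of the 6 pairs passed. DESeq2 gave no p for Ucp1, so its adjusted p is from 21 alternatives. Over 22 alternatives the log2 fold change of Ucp1 lay between -1.997 and 1.23, of Cidea between -0.13 and 0.46 and of Adrb3 between 0.0028 and 0.49, with adjusted p of at least 0.819, 0.875 and 0.772. Leaving out 1 library gave Ucp1 -1.997 (without HFB 3) to 1.228 (without CTL 9), Cidea -0.1258 (without HFB 3) to 0.4636 (without CTL 9) and Adrb3 0.056 (without HFB 4) to 0.40. All other alternatives kept the direction of these genes.

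At an unadjusted p under 0.05 there were 220 genes with all libraries, 613 with limma and 631 with the adipocyte score as a covariate. The count lay between 135 (without HFB 5) and 587 (without CTL 14) when 1 library was left out. In settings chosen after seeing the data it was 136 without HFB 3 and CTL 9 and 431 without HFB 6 and CTL 14. The cause was not tested.

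Among sparse members, Elovl3 turned to 0.1047 with limma and 0.9285 without CTL 8, where 5 of its 12 reads lay, and leaving out 1 library gave -0.8279 to 0.9285. Ppargc1a turned to 0.0533 without CTL 9 and 0.0991 without HFB 3 and CTL 9, and leaving out 1 library gave -0.5748 to 0.0533. Dio2 and Ppargc1b had the same direction in 20 alternatives but not the same size: leaving out 1 library gave Dio2 -1.2851 (without HFB 1) to -0.1411 (without CTL 9) and Ppargc1b -0.775 (without CTL 14) to -0.3046 (without HFB 5), against -0.6714 and -0.559 with all. The difference in summed adipocyte markers turned from 1356 to -585.1 CPM with total counts, an alternative added after seeing the data. The other 7 marker sums kept their direction, but not all kept their size. The lymphoid difference went from 44.36 to 10.93 CPM and the nerve difference from -50.82 to -157.7 CPM. The endothelial difference went from -20.45 to -41.1 CPM and the epithelial difference from -72.91 to -112.4 CPM.

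No paired analysis was possible because the libraries of the 2 diets share no number. At 2320267 to 2944680 counts per library, Dio2, Elovl3, Ppargc1a, Ppargc1b and Zic1 had between 1 and 46 reads each in all. Whether deeper libraries would separate the diets for these genes was not tested. The spread between glands limits Ucp1.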
